A study of Homo sapiens with 2 samples.

Results

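To describe how GATA1 chromatin immunoprecipitation signal lay along platelet shape and cytoskeleton genes, 9 genes were followed on a set of 2 promoter arrays. The arrays were hybridized with DNA from Meg-01 cells, a human megakaryocytic leukemia line. The genes were TUBB1, MYH9, MYH10, FLNA, TLN1, ACTN1, ACTN3, WAS and ZYX, out of 17054 genes with enough adjacent probes to be scored on these arrays. Their probes were found by gene symbol in the annotation that the array carries for each probe. The 9 genes themselves were picked with earlier results of these arrays known. All 294 probes annotated to them were kept, between 15 (ACTN3) and 47 (MYH9) per gene. TLN1 and ZYX were on the array titled chIP1 and the other 7 genes on the array titled chIP2.

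Both arrays held the same pair of samples. DNA pulled down from untreated parental Meg-01 cells with the GATA1 (C-20) antibody was labeled with Cy5 and is called the IP, and DNA pulled down from the same line with normal goat IgG was labeled with Cy3. The arrays hold different probes, so each probe has a single value from 1 hybridization. Neither a repeat nor a swap of the dyes was made, and no p-value was computed. Only DNA of 1 cell line was hybridized, so the labeled cell type could not be checked against marker transcripts.

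The transcription factor GATA1 binds GATA sequences through zinc fingers and is required for the maturation of megakaryocytes and red cells. Megakaryocytes extend long microtubule-driven processes into the blood stream, from which platelets are released. The discoid shape of the platelet then rests on a marginal band of microtubules and on an actin and myosin network that is tied to the plasma membrane, and inherited defects in several of these genes, among them TUBB1, MYH9, FLNA, ACTN1 and WAS, change platelet number or size.

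The value of a probe was log2 of the processed IP signal over the processed IgG signal, shifted so that each array had a median of 0. A window is the mean of 3 adjacent probes, each neighbor within 1000 bp of the center. Windows whose mean reached 1, which is a 2-fold excess of IP signal, are called enriched, and those at -1 or below, a 2-fold excess of IgG signal, are called depleted. Signals were low on both arrays, with a median raw IP signal of 543 and 544 against 342 and 340 for the negative control spots. The median raw IgG signal was 412 and 440 against 303 for these spots on both arrays. A control probe spotted 479 and 480 times had an SD of 0.04 on both arrays, while kept genomic probes had an SD of 0.97. The brightness of this control was not compared with that of the genomic probes, so these SDs do not separate noise from signal. The SD given with a window below is the spread among its 3 probes and not an error between samples. Positions are those of the array design, whose genome build is not given in the sources used here.

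RefSeq promoter sequences were set beside these loci because GATA1 recognizes a short stretch of DNA. The letters AGATAA or TGATAA and their forms ending in G (AGATAG or TGATAG), none of which can be read within another, were searched on both strands of the 250 bases before each RefSeq start in GRCh38.p14. Of the 9 genes, 8 had entries, 12 in all. ACTN3 had none. One or more of the 4 motifs was held by 22.3% of all 35116 RefSeq promoters and by 1 of the 12 entries. That entry was an ACTN1 start, with TGATAA at positions -170 to -165 from the start on the strand of the gene. It is shown here with the TUBB1 promoter, the most platelet-restricted gene of the set, and the MYH10 promoter, the gene with the highest window. Capitals mark the motif, and lower case stretches hold none of the 4.
TUBB1, chr20:59019179-59019428, plus strand: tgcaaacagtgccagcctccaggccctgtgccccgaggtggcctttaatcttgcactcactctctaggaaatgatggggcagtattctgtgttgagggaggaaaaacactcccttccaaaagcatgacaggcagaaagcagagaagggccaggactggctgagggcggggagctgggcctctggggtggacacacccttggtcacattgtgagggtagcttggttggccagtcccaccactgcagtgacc
MYH10, chr17:8630726-8630975, minus strand: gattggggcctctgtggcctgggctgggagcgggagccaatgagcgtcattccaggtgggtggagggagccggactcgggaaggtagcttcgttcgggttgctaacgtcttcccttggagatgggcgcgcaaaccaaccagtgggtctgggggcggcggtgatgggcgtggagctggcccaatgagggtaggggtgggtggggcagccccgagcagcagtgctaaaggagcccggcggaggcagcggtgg
ACTN1, chr14:68937952-68938201, minus strand: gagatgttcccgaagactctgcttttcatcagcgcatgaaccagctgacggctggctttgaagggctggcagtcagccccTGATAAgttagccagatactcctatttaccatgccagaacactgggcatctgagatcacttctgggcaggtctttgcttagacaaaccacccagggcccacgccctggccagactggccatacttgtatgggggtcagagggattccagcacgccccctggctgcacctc
No match in these windows says only that the letters are not there. The GRCh38.p14 positions cannot be placed on the array positions, and which of the 4 ACTN1 starts the array annotation used was not determined. The 250 bases were GC-rich for most of these genes. Of the 12 entries, 8, among them those of MYH9 (71.6%), MYH10 (67.2%) and FLNA (78.4%), lay above the median of 58% over all promoters, and TUBB1 lay at 57.6%.

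An enriched window was found in 7 of the 9 genes, and in 57.1% of all genes. Among the 13132 genes with as many windows as these, from 13 to 42, the share was 59.1%. Of the 266 windows of the 9 genes, 26 or 9.77% were enriched, against 7.62% of all windows. On the IgG side the count was lower. A depleted window was found in 1 of the 9 genes (ZYX), against 52.9% of all genes and 56.2% of those with 13 to 42 windows. The 3 depleted windows were 1.13% of the 266, against 9.65% of all windows. The median of the highest windows was 1.36 for the 9 genes and 1.09 for all genes, and the median of the lowest windows was -0.67 and -1.05. Single probes lay the same way, with 186 of 294 (63.3%) above 0, as 50% of all probes are by construction, and 12.2% at 2-fold or more toward the IP against 11.8% of all probes. Toward the IgG, 4.08% of the probes were at 2-fold or more against 14.4% of all probes. All 9 genes had more probes above 0 than below.

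**Figure D1:**
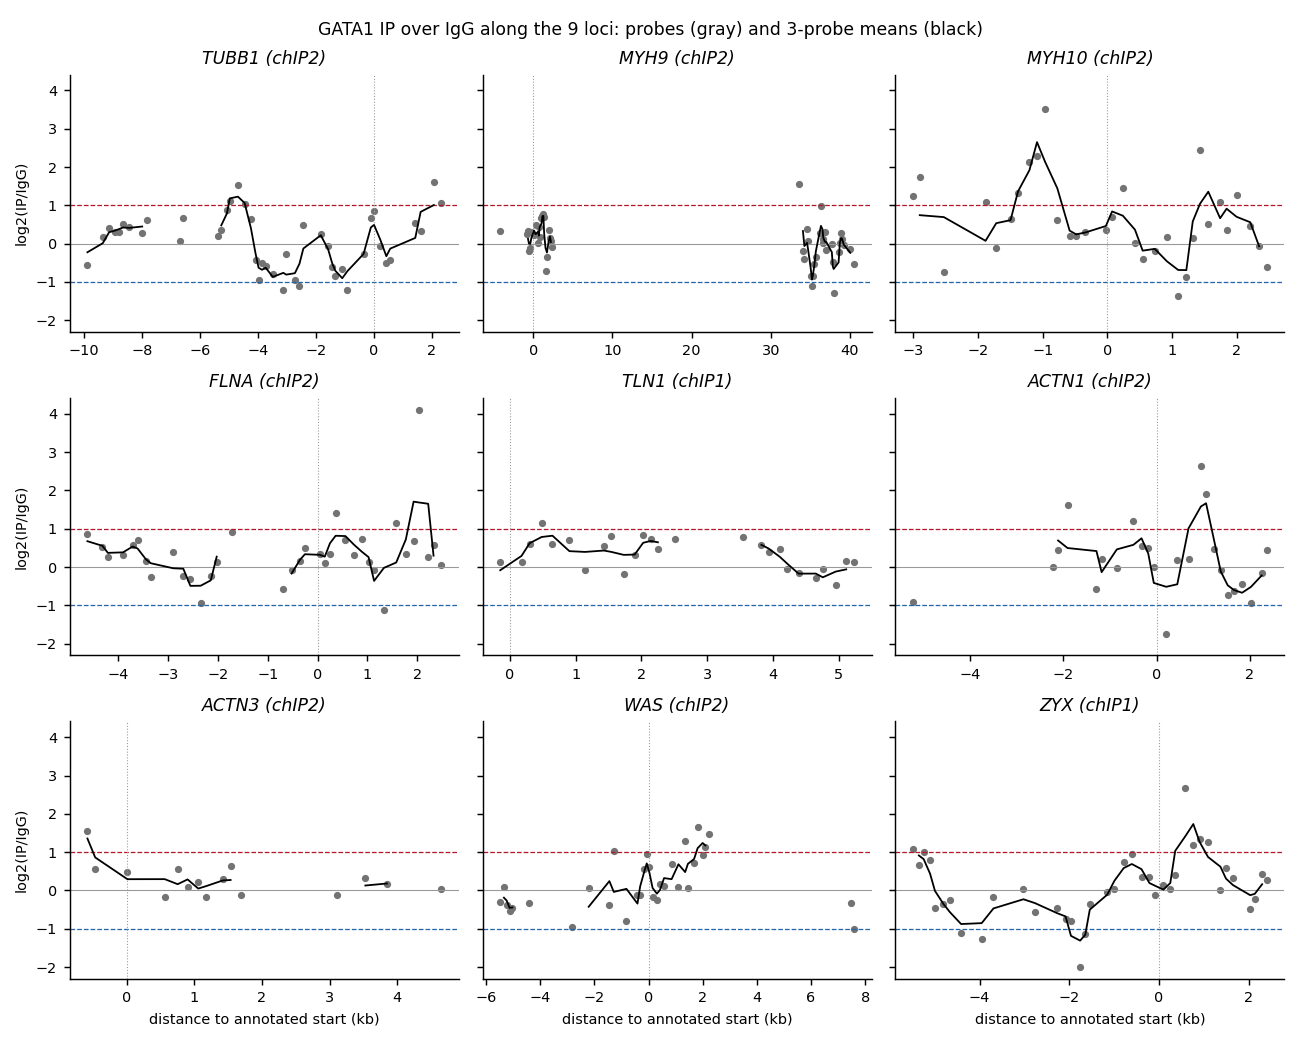
Log2(IP/IgG) of each probe (gray points) and of each 3-probe window (black line, broken where windows lie over 1 kb apart) against the distance to the annotated start in kb, 1 panel per gene with the array in brackets and dashed lines at 2-fold. Enriched stretches stand upstream of the start in TUBB1, MYH10 and ACTN3 and inside the gene in TUBB1, MYH10, FLNA, ACTN1, WAS and ZYX, and the windows of MYH9 and TLN1 stay below the upper line.

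The microtubule gene of the set was TUBB1, which encodes beta-1 tubulin, the main beta tubulin of the platelet marginal band. Its highest window lay far upstream, at chr20:57022709-57023271 with its center probe at -4690 bp from the start. The 3 probes read 1.12, 1.53 and 1.03, for a mean of 1.23 ± 0.27 (SD of 3 probes). All 3 probes were above 2-fold, so the window did not rest on a single spot. Their raw IgG signals, from 478 to 621, were above the median of the array. The array annotates this stretch as a divergent promoter shared with CTSZ, the cathepsin Z gene on the other side, and it was the highest window of CTSZ as well. Of the 44 TUBB1 probes, 28 were shared with CTSZ. A further window inside the gene, with probes at 0.34, 1.62 and 1.07 between 1622 and 2329 bp after the start, had a mean of 1.01. No window at the start was enriched. The 5 probes within 500 bp ranged from -0.50 to 0.86 with a median of -0.07. Those nearest the start, at -99 and 12 bp, read 0.67 and 0.86, a small local rise below 2-fold. Between the upstream stretch and the start most of the locus leaned to the IgG, with a lowest window of -0.91 at -1086 bp. The highest window ranked at the 61.7th percentile of the highest windows of all genes on the array.

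Of the myosin heavy chains, MYH9 encodes nonmuscle myosin IIA, the main myosin of platelets, and MYH10 encodes nonmuscle myosin IIB, which is silenced as megakaryocytes mature. The 2 loci differed widely in the reported processing. MYH10 held the highest window of the 9 genes, at chr17:8475700-8475997 and centered at -1089 bp. Its probes read 3.51, 2.30 and 2.14, for a mean of 2.65 ± 0.75 (SD of 3 probes), at the 98.2th percentile of its array. The window was the center of a stretch of 5 enriched windows over 958 bp, with 7 probes from 0.21 to 3.51. This stretch was dim. The raw IgG signals of the 3 probes, 310, 317 and 326, stood close to the 303 of the negative controls, and the processed IgG signals were 54.6, 124 and 209 against processed IP signals of 625, 548 and 1032. Normexp is a background correction that adds an offset before the ratio. It was run on the raw signals, so its values also lack the detrending and dye normalization of the processed signals. With normexp this window had a mean of 0.91, and the highest MYH10 window, then at 1841 bp inside the gene, had a mean of 0.96. Both were under the threshold. The part of dimness in this ratio was not tested. A second enriched stretch lay 1318 to 1741 bp inside the gene, with 4 probes from 0.15 to 2.44.

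MYH9 held no enriched window. Its 47 probes lay mainly in 2 groups, the first around the start and the second, of 26 probes, from 33519 to 40510 bp inside the gene. The highest window, 1279 bp after the start, had probes at 0.70, 0.76 and 0.71 and a mean of 0.72 ± 0.03 (SD of 3 probes), at the 25.1th percentile. The lowest, deep inside the gene at 35209 bp, had probes at -0.85, -1.11 and -0.86 and a mean of -0.94. One MYH9 probe passed 2-fold toward the IP, at 1.57, and it stood at the edge of the inner group. In the reported processing, MYH9 thus showed neither an enriched nor a depleted window, and MYH10 showed 7 enriched windows. With normexp neither of these genes had an enriched window, with highest windows of 0.70 for MYH9 and 0.96 for MYH10.

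**Figure D2:**
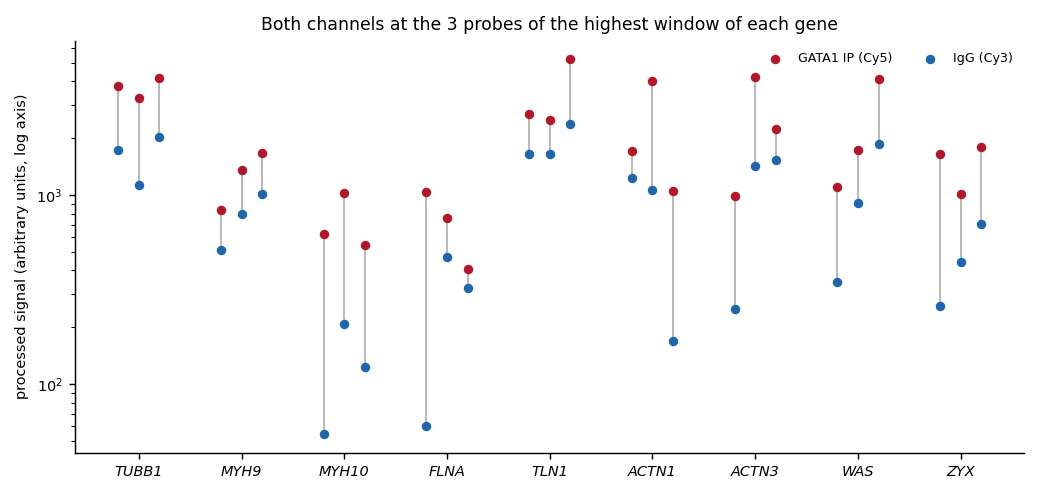
Processed signal of the GATA1 IP (red) and the IgG (blue) on a log axis, in arbitrary units, at the 3 probes of the highest window of each gene, with lines joining the channels of 1 probe. The IgG signals in MYH10 (54.6 to 209) and at 1 FLNA probe (60) lie far below those in TUBB1 (1129 to 2032).

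FLNA encodes filamin A, which crosslinks actin and ties it to the glycoprotein Ib receptor complex. Its 3 enriched windows all contained the same probe, 2025 bp inside the gene, which read 4.11 with a raw IgG signal of 314 and a processed IgG signal of 60. The other 2 probes of the highest window, at chrX:153121727-153122036, read 0.68 and 0.33, for a mean of 1.71 ± 2.09 (SD of 3 probes). The 2 probes on the other side of it read 0.27 and 0.58. With the median of the 3 probes in place of the mean, the highest FLNA value was 0.70, and no FLNA window was enriched. Single FLNA probes elsewhere in the locus ran from -1.13 to 1.40, and the lowest window was -0.49. The 19 upstream probes were shared with EMD, the emerin gene. EMD had 4 enriched windows of its own, up to 1.36, none of them a window of FLNA.

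TLN1 encodes talin-1, which binds the tails of integrins and activates them. It had no enriched window. The highest, at chr9:35721193-35721673 and 649 bp after the start, had probes at 0.71, 0.61 and 1.14 and a mean of 0.82 ± 0.28 (SD of 3 probes), with raw IP signals from 917 to 1590. The signal was broad and low rather than peaked, since 19 of 26 probes lay above 0, the median probe was at 0.43 and the lowest window was -0.27. The 1 upstream probe was shared with CREB3, whose highest window of 0.83 was also below 2-fold.

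The alpha actinins crosslink actin filaments. ACTN1 is the nonmuscle form found in platelets, and ACTN3 is best known as the form of fast skeletal muscle fibers. ACTN1 had 3 enriched windows inside the gene. The highest, at chr14:68514466-68514784 and 1060 bp after the start, held probes at 0.47, 1.90 and 2.63, for a mean of 1.67 ± 1.10 (SD of 3 probes). Of the 2 strong probes the one at 1.90 was bright, with a processed IP signal of 4017, and the one at 2.63 was dim, with a processed IgG signal of 169. At 206 bp after the start a single dim probe read -1.75, the lowest ACTN1 value, and the window minimum was -0.67. The printed ACTN1 promoter with TGATAA belongs to 1 of 4 RefSeq starts of this gene and cannot be set beside these windows.

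ACTN3 had 2 enriched windows at its upstream end. The study tabulated ACTN3 among genes that it selected by these arrays together with altered expression after GATA1 knockdown. The enrichment of ACTN3 is thus not independent of that choice. The highest window, at chr11:66070110-66070523, held probes at 1.98, 1.55 and 0.55, for a mean of 1.36 ± 0.73 (SD of 3 probes). The first of these probes was annotated to ZDHHC24 alone, a palmitoyltransferase gene that shares this divergent promoter, and the window was also the highest of ZDHHC24. When windows were limited to probes annotated to ACTN3, its highest window was 0.86, under the threshold, and with windows of 5 probes it was 0.97. Inside the gene the windows lay near 0, down to 0.05, and no ACTN3 window lay below 0.

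WAS encodes the Wiskott-Aldrich syndrome protein, which starts actin branching through the Arp2/3 complex. Its 3 enriched windows lay inside the gene around 2 kb after the start. The highest, at chrX:48300248-48300578, held probes at 1.66, 0.92 and 1.13, for a mean of 1.24 ± 0.38 (SD of 3 probes), and the probes on its sides read 0.73 and 1.47. Every one of these 5 probes was above 0.7, and with normexp the highest window was 1.13. The lowest window, at -5135 bp, was -0.45. Within 500 bp of the start the 8 probes ranged from -0.25 to 0.95 with a median of 0.03. Those at -170, -68 and 30 bp read 0.56, 0.95 and 0.61, a local rise below 2-fold.

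ZYX encodes zyxin, a LIM protein of actin-anchoring adhesions, and was the only one of the 9 with windows past 2-fold on both sides. The highest window, at chr7:142595762-142596123 and 764 bp after the start, held probes at 2.67, 1.20 and 1.34, for a mean of 1.74 ± 0.81 (SD of 3 probes). The next probe downstream read 1.26, so 4 adjacent probes were above 2-fold. The lowest window, at chr7:142593205-142593577 and -1758 bp, held probes at -0.81, -1.995 and -1.13, for a mean of -1.31 ± 0.61 (SD of 3 probes). With normexp both windows kept their side, at 1.25 and -1.003. The 2 stretches lay in the same locus on the same array, 6 probes in the enriched one and 5 in the depleted one.

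The order of the highest windows was MYH10 (2.65), ZYX (1.74), FLNA (1.71), ACTN1 (1.67), ACTN3 (1.36), WAS (1.24), TUBB1 (1.23), TLN1 (0.82) and MYH9 (0.72). From ZYX to TUBB1 each neighbor in this order differed from the next by less than the SD among the 3 probes of either window. That SD is no error between samples, so no step in the order was tested. All 3 probes of a window passed 2-fold in 5 of the 26 enriched windows (19.2%), found in TUBB1, MYH10 and ZYX, against 21.8% of all enriched windows. With normexp the order was ACTN1 (1.27), ZYX (1.25), TUBB1 (1.24), WAS (1.13), ACTN3 (1.10), MYH10 (0.96), TLN1 (0.93), FLNA (0.90) and MYH9 (0.70). The highest window was then another one than before in MYH9, MYH10, FLNA and TLN1. For ACTN3, whose window holds a probe annotated to ZDHHC24 alone, this was not determined. MYH10 and FLNA had no enriched window, 5 of the 9 genes held an enriched window, and the share over all genes was 33.1%. A depleted window was found in 1 of the 9 genes against 23.9% of all genes, and 3.25% of all windows were enriched and 2.5% depleted.

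**Figure D3:**
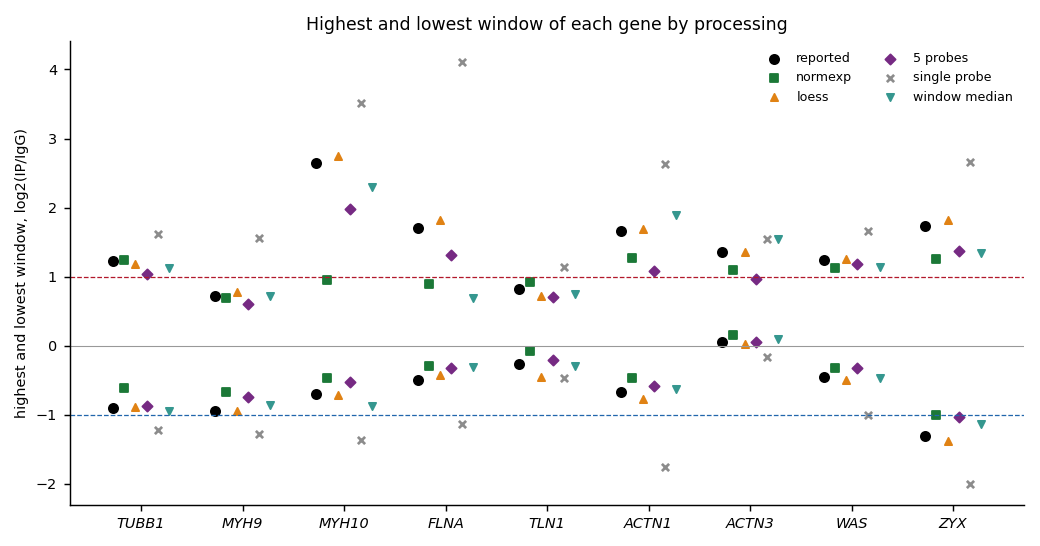
Highest (upper group) and lowest (lower group) window of each gene in log2(IP/IgG) under the reported processing and 5 alternatives, with dashed lines at 2-fold. Each setting takes its own highest and lowest window, which need not be at the same place. The highest MYH10 value is 2.65 as reported and 0.96 with normexp, that of FLNA 1.71 and 0.90, and that of TUBB1 1.23 and 1.24.

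In the reported processing, enriched windows lay to the sides of the start rather than on it. Windows were placed by their center probe, or by the nearest annotated probe where the center was not annotated to the gene. Of 48 windows within 500 bp of the annotated start, 1 (2.08%) was enriched, against 10.4% of all such windows on the arrays. From 500 to 2000 bp upstream 7 of 35 windows (20%) were enriched, against 7.26%, and 500 to 2000 bp inside the gene 11 of 70 (15.7%) were, against 7.35%. The upstream 7 came from MYH10 and ACTN3 alone, and adjacent windows share probes, so these counts rest on few stretches. With normexp no MYH10 window was enriched, upstream or inside the gene (highest 0.96). With its own probes alone, ACTN3 had none either (highest 0.86). The upstream count thus depended on the processing. Farther out, 4.92% of upstream and 7.69% of inner windows were enriched, against 6.57% and 6.67%. The median window within 500 bp of the start was 0.29 for these genes and 0.26 over the arrays. The depleted windows of the 9 genes all lay 500 to 2000 bp upstream, where they made up 8.57% against 9.33% of all windows. Beyond 2000 bp upstream, where 14.8% of all windows were depleted, the 9 genes had 61 windows and none was.

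**Figure D4:**
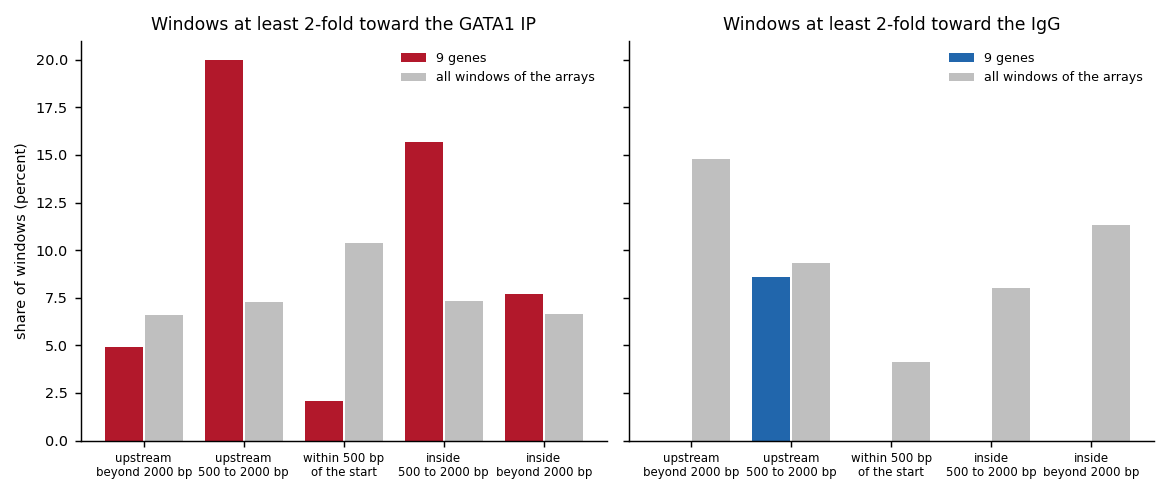
Share of windows in percent that were enriched (left) and depleted (right), by distance of the center probe to the annotated start, for the 9 genes (colored bars) and for all windows of both arrays (gray bars). The colored bar within 500 bp of the start stands at 2.08% against 10.4%, and the bars on either side of it stand at 20% and 15.7%. The 20% comes from MYH10, which had no enriched window with normexp, and from ACTN3, which had none with its own probes alone.

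The closest relatives of these genes were read in the same way. Of 25 listed paralogs from the same 7 protein families, 23 had a window, 11 (47.8%) held an enriched window, against 57.1% of all genes, and 11 (47.8%) a depleted window, against 52.9%. Their median highest window was 0.99. Of the beta tubulins other than TUBB1, TUBB2C (1.37) and TUBB2A (1.32) were enriched, and TUBB2B (0.99), TUBB (0.93), TUBB3 (0.71), TUBB6 (0.63) and TUBB4 (0.55) were not. The other myosins read 1.08 (MYH14) and 0.67 (MYH11, of smooth muscle). FLNC, the filamin of muscle, read 0.92. TLN2, the second talin, held windows at 2.33 and at -2.13, but with normexp its highest was 0.47. ACTN2 of muscle read 1.40, or 0.84 with normexp, and ACTN4 read 0.70. In the WASP and WAVE family, whose members all act on the Arp2/3 complex, WASF1 (2.01) and WASL (1.85) stood above WAS, and WASF2 (0.91) and WASF3 (0.46) stood below it. With normexp WASL read 0.93, below WAS at 1.13 and below the threshold, while WASF1 read 1.46 and WASF2 1.05. Among the LIM proteins related to zyxin, LPP reached 2.51 and JUB 2.03, and with normexp their highest windows were 0.67 and 0.64. TRIP6 read 1.64, FBLIM1 1.44 and LIMD1 0.87.

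**Figure D5:**
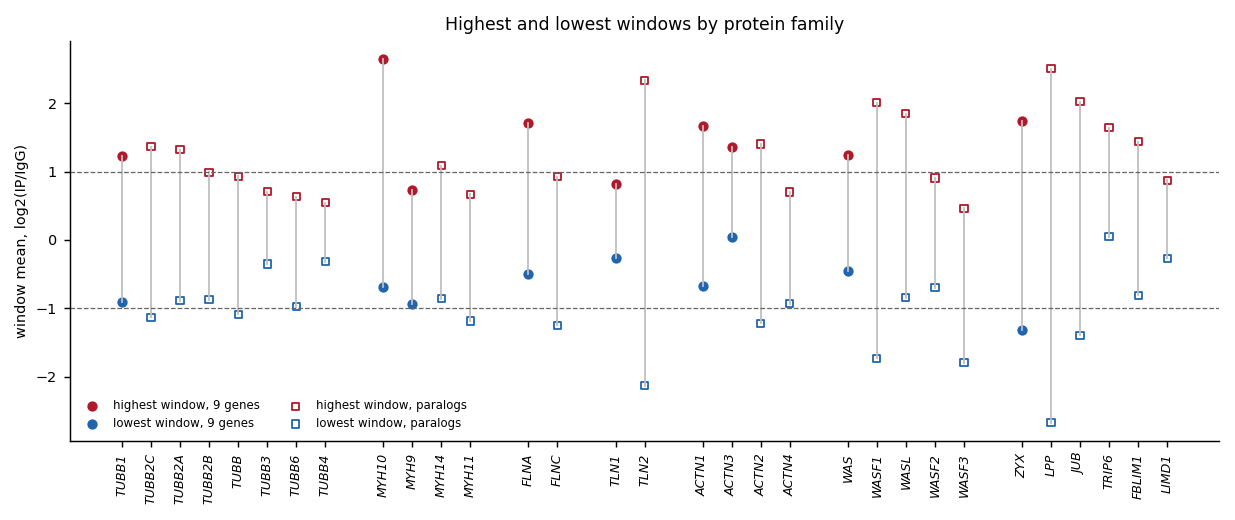
Highest (red) and lowest (blue) window in log2(IP/IgG) of the 9 genes (filled circles) and of their paralogs (open squares), grouped by protein family, with lines joining the windows of a gene and dashed lines at 2-fold. LPP and TLN2 span from above 2 to below -2, while the 9 genes span from 2.65 (MYH10) down to -1.31 (ZYX).

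A further list held 61 other genes of the platelet cytoskeleton, of which 59 had a window. An enriched window was found in 37 (62.7%, against 57.1% of all genes) and a depleted one in 22 (37.3%, against 52.9%), and the median highest window was 1.16. The highest were CDC42 (2.22), the small GTPase that relieves WASP of its own inhibition, the formin DIAPH2 (2.18), ENAH (2.09) and VASP (1.95), which promote actin filament growth, and VCL (2.05), which encodes the talin partner vinculin. Like ACTN3, DIAPH2 was tabulated by the study among the genes selected by these arrays together with knockdown expression, so its enrichment is not independent of that choice. At the low end were MYLK (0.18), the myosin light chain kinase, and the myosin light chain gene MYL12B (0.25, named MRLC2 on the array). By group, 7 of 10 genes of actin and its turnover, 2 of 7 of the Arp2/3 complex, 3 of 6 of the myosin light chains and their regulators, 5 of 7 integrin adaptors and 3 of 4 of the membrane skeleton held an enriched window. Both partners of WASP on the list, WIPF1 (1.66) and NCK1 (1.47), held one, as did all 3 tropomyosins and both SRF pathway genes, SRF (1.43) and MKL1 (1.59).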

How the data were processed

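GATA1 IP (Cy5) and IgG (Cy3) DNA from Meg-01 cells was hybridized to a 2-array promoter set, 1 hybridization per probe. Per the file headers, Agilent Feature Extraction 9.5.3.1 produced the deposited intensities and subtracted a background surface, detrended and dye-normalized them. The deposited log10 ratio and its p-value come from the same software, and the deposited series values are identical to these log10 ratios. In the study, lowess and median normalization and a commercial peak caller followed, which were not used here. The log2 ratio used here was computed from the deposited processed intensities in R 4.3.3 (limma 3.58.1) and Python 3.11.15. Control spots, non-uniformity outliers and probes that stood above background in neither channel were dropped. Windows of a gene hold at least 1 probe annotated to it, so windows can include a probe of the neighboring gene. The window step was tested on simulated data.

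Genes named are the 9 members, genes sharing probes with them, their paralogs with a window, and the 5 highest and 3 lowest of the other list. Some items these rules name are not reported here. WIPF1, NCK1, SRF and MKL1 were chosen after their values were seen. The members and lists were chosen with earlier results of these data known. TUBB8, WTIP, SCIN and TMSB4X were not matched. Alternatives were loess with a span of 0.3, normexp with an offset of 50, the series values, filters on dim probes, single probes and 5-probe windows. Further ones were 1.5-fold, 3-fold and 4 robust SD thresholds, the scanner error model and removal of the trend on distance. Normexp was run on the raw signals, so it differs from the reported ratio in more than the offset. Window medians and windows of annotated probes alone were added after seeing the data.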

Additional observations from a re-analysis of the deposited data

How the results depend on the processing

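No paired analysis was possible because no probe was on both arrays and nothing was tested across samples. Of 90 highest windows recomputed under the alternatives, 83 kept their side of 2-fold, and none changed sign. The 5 that fell below were MYH10 (0.96) and FLNA (0.90) with normexp, ACTN3 with 5-probe windows (0.97) and with its own probes alone (0.86), and FLNA with window medians (0.70). Part of the 83 was fixed in advance. The series values are the same ratios, and other filters on dim probes hardly moved a value, with MYH10 at 2.65 each time. Limiting windows to annotated probes changed the highest window of ACTN3 alone. A maximum over many windows is also unlikely to change sign. As single probes MYH9 (1.57) and TLN1 (1.14) passed 2-fold, and the lowest ACTN3 value turned from 0.05 to -0.16. Counts over the genes moved as follows, and the cause was not tested. With normexp the 26 enriched windows became 11 and the 3 depleted ones 1, with 3.25% and 2.5% of all windows. With single probes, 6 genes were depleted, with 12 depleted probes, and 23 paralogs were enriched, with 81.1% of all genes depleted, 86.1% enriched and 14.4% of all probes depleted. With 5-probe windows 7 paralogs and 34.9% of all genes were enriched. At 1.5-fold, 5 genes were depleted, 65 windows were enriched and 26 depleted, and 20 paralogs were enriched, with 78.4% of all genes depleted and 85% enriched, and 19.3% and 21% of all windows enriched and depleted. At 3-fold, 4 genes, 8 windows, 6 paralogs and 12 other cytoskeleton genes were enriched, and 0 genes and 0 windows were depleted, with 20.6% of all genes and 1.79% of all windows enriched and 22.3% and 2.74% depleted. At 4 robust SDs, log2 thresholds of 2.83 and 2.67, every count was 0, with 1.51% of all genes enriched and 2.1% depleted. With the scanner error model, 5 genes were depleted, 44 windows were enriched and 20 depleted, and 22 paralogs were enriched, with 79.8% of all genes depleted and 85.2% enriched, and 15% and 17.4% of all windows enriched and depleted. Low signals and 1 hybridization per probe limit every value.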

Other observations

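Some cytoskeleton genes, picked here for that, held strong windows on both sides. Over their whole lists, 74 of 1752 windows (4.22%) of the other cytoskeleton genes and 46 of 605 (7.6%) of the paralogs were depleted. DIAPH2, a formin gene on the X chromosome, had 6 enriched and 14 depleted windows of 46, from 2.18 down to -3.08. The study selected DIAPH2 by these arrays together with knockdown expression. LPP had 6 and 13 of 42 windows, and TPM1, a tropomyosin gene chosen after its values were seen, had 4 and 11 of 68, from 1.54 down to -2.11. TRIP6, a relative of zyxin, had 8 enriched windows of 25 and a lowest window of 0.05, the same lowest value as ACTN3.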
